A study of Mus musculus with 5 samples.

Results

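The genes described here are 10 transcripts by which inhibitory interneurons of the forebrain are recognised: the neuropeptides Sst, Npy, Vip, Cck and Crh, the calcium-binding proteins Pvalb, Calb1 and Calb2, and the GABA-synthesizing enzymes Gad1 and Gad2. They were chosen by name and matched by mouse symbol to the Ensembl identifiers of the count files, which hold 55573 genes in all. Each of the 10 symbols matched 1 identifier, and all 10 genes had enough counts to be among the 23592 genes tested. RNA was sequenced from the right hemisphere of C57BL/6 female mice that were 7 to 8 weeks old when GL261 cells, a mouse glioma line carrying luciferase and mKate2, were placed in the right caudate nucleus-putamen. Libraries of 3 mice given vehicle, an antibody dilution buffer, were compared with those of 2 mice given UMBO (ultrasound-mediated blood-brain barrier opening with intravenous microbubbles) on days 21 and 24, and tissue was taken 24 h later. Mice had been selected for tumors of comparable bioluminescence, and a sham sonication of the vehicle mice is not described. The study's methods describe more mice than were analysed here. Both groups carried the tumor, there was no tumor-free mouse in the comparison, and no antibody against a checkpoint was part of either label. Each library is bulk tissue from 1 mouse and holds tumor, brain and immune cells together. Total counts per library ranged from 59736771 to 86164159.

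Interneurons release GABA, which Gad1 and Gad2 make from glutamate, and are sorted into classes by a peptide or a calcium buffer. Pvalb and Sst mark the largest cortical classes, which arise from the medial ganglionic eminence, and Vip marks a class from the caudal eminence that mainly contacts other interneurons. Npy is found in many Sst neurons and in neurogliaform cells, and Cck marks a class of basket cells. Several of these genes are not restricted to interneurons: striatal projection neurons and cerebellar Purkinje cells use GABA and contain Calb1, excitatory cortical neurons contain Cck, Calb2 is found in thalamus and olfactory bulb, and Crh is also a hypothalamic hormone. Gad1, Gad2 and Calb1 in a hemisphere that includes the striatum are therefore not a measure of interneurons alone.

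The peptide genes are known as targets of cAMP signalling through the cAMP response element, the palindrome TGACGTCA, of which TGACG is the shorter form. The stretches in front of the start site are shown for the genes at the upper and lower end of the comparison below, Npy and Vip, and around the site for the other genes that hold one, since the data compare these genes under the same treatment. Sequences are those of RefSeq on GRCm38.p6, 5′ to 3′ on the strand of the gene, with every base of a site in capitals. Windows were found for 7 of the 10 genes; Calb1, Calb2 and Crh had no entry.
Npy, chr6:49822590-49822709, plus strand: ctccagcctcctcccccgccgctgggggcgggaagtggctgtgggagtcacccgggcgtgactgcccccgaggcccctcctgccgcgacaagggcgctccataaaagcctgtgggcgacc
Vip, chr10:5639098-5639217, plus strand: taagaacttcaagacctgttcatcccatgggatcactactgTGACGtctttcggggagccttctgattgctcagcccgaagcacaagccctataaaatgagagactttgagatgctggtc
Sst, chr16:23890874-23890903, minus strand: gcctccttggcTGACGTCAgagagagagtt
Cck, chr9:121495725-121495754, minus strand: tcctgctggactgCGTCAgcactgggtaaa
Gad2, chr2:22622281-22622310, plus strand: tccatttcccttcCGTCActctctcatctc

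Within the 250 bases before the start site, the shorter form, TGACG, on either strand (which the palindrome contains) was present in front of Sst, Vip, Cck and Gad2, 4 of the 7 genes, and 17.8% of all 32851 windows held it. The full palindrome was present in front of Sst alone among the 7, with its first base at -48 from the RefSeq start, and in 1.55% of all windows. The shorter form began at -79 in front of Vip, at -47 in front of Cck and at -33 in front of Gad2. None was found in front of Npy, Gad1 or either start of Pvalb. The genes with a TGACG had no common direction in the comparison below: log2 fold changes were 0.10 for Sst, -0.09 for Cck, -0.33 for Gad2 and -0.54 for Vip.

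Across all genes the comparison of UMBO with vehicle gave 0 calls by edgeR's quasi-likelihood fit (Benjamini-Hochberg adjusted p under 0.05), which is 0% of 23592 genes. Of these, 1738 had an unadjusted p under 0.05, and the DESeq2 Wald test called 37 genes and limma voom 0. None of the 10 interneuron genes was called by edgeR, DESeq2 or limma voom. At an unadjusted p under 0.05 in edgeR, 1 of the 10, Npy, was higher with UMBO, where 5.3% of all genes were, and 0 were lower, where 2.06% were. On the scale of CPM (read counts relative to the TMM-adjusted library size), the UMBO values were both below all vehicle values in 4 of the 10 genes (Vip, Pvalb, Crh and Gad1), against a background of 11.4% of all genes. They were both above all vehicle values in 2 of the 10 (Npy and Sst), against 11.5%. Counting error was small for these genes, whose counts per library lay between 189 (Crh) and 31177 (Gad1), so the spread between mice set the precision. With 3 libraries against 2 there are 10 groupings, and the smallest p of an exact permutation test is 0.1. In bulk tissue, fewer cells of a type and less RNA per cell cannot be told apart.

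The libraries also differed widely within the groups. The largest component of variation held 78.7% of the variance and placed UMBO replicate 2 at 133.7, against -68.4 to 17.0 in the other 4 libraries. In this library the 15 pan-neuronal genes (Rbfox3, Snap25, Syt1 and others) summed to 5888 CPM, against 9357 in UMBO replicate 1 and 9514 to 12380 with vehicle. The 10 proliferation genes (Mki67, Top2a and others) summed to 498.9 CPM there, against 120.1 in UMBO replicate 1 and 37.1 to 115.4 with vehicle. The 12 genes of microglia and macrophages summed to 2625 CPM, against 1032 and 451.2 to 1374. The brain markers were abundant in all 5 libraries, so the labelled tissue was present in each.

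**Figure D1:**
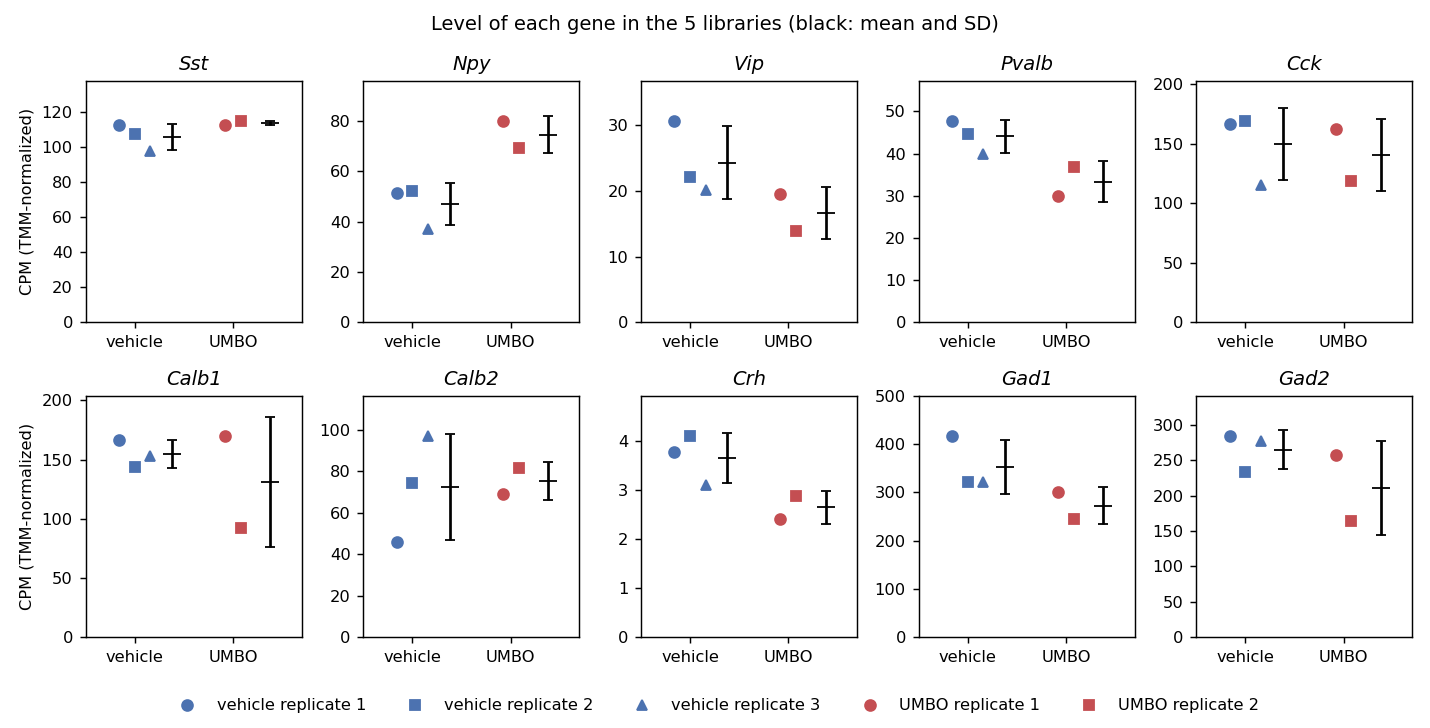
Level of each of the 10 genes in CPM (vertical axes, each from 0) in the 3 vehicle libraries and the 2 UMBO libraries, with the mean and SD of each group in black. Npy lies at 69.3 and 79.9 CPM with UMBO, above all vehicle values (37.3 to 52.1), while Cck, Calb1, Calb2 and Gad2 overlap between the groups.

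Among the neuropeptides, Npy stood highest with UMBO. Npy (ENSMUSG00000029819, chromosome 6 of GRCm38, 49822710 to 49829507) encodes neuropeptide Y, an inhibitory peptide. It was at 51.4, 52.1 and 37.3 CPM in vehicle replicates 1 to 3 and at 79.9 and 69.3 CPM in UMBO replicates 1 and 2. The groups did not overlap, and the lowest UMBO value was above the highest vehicle value by more than the SD of either group (8.36 and 7.5 CPM). The log2 fold change was 0.67 (standard error 0.207, 95% interval 0.162 to 1.18), with an edgeR adjusted p of 0.497 over all genes. The exact permutation test gave p = 0.1, the smallest possible here (2-sided, 3 against 2). When single libraries were omitted, the estimate stayed between 0.53 and 0.78, and it was 0.77 without UMBO replicate 2.

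Sst (ENSMUSG00000004366, chromosome 16, 23889573 to 23890958, reverse strand) encodes somatostatin, the peptide of dendrite-targeting interneurons. Its values were 112.5, 107.8 and 97.9 CPM with vehicle and 112.9 and 114.9 CPM with UMBO. Both UMBO libraries were above the vehicle libraries, but UMBO replicate 1 exceeded vehicle replicate 1 by less than the spread among vehicle mice (SD 7.46, n = 3). The log2 fold change was 0.10 (95% interval -0.31 to 0.516, edgeR adjusted p 0.745). Sst also had the smallest relative spread among vehicle mice, with an SD of 7.03% of the mean.

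Vip (ENSMUSG00000019772, chromosome 10, 5639218 to 5647617) encodes vasoactive intestinal peptide. It was at 30.6, 22.1 and 20.2 CPM with vehicle and at 19.5 and 13.9 CPM with UMBO. The groups did not overlap, yet UMBO replicate 1 lay close to vehicle replicate 3 and the difference was carried by the extremes, vehicle replicate 1 and UMBO replicate 2. The log2 fold change of -0.54 (95% interval -1.2 to 0.114) had an edgeR adjusted p of 0.497. It was -0.31 without UMBO replicate 2, -0.84 without UMBO replicate 1 and -0.34 without vehicle replicate 1.

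Crh (ENSMUSG00000049796, chromosome 3, 19693401 to 19695396, reverse strand), for corticotropin-releasing hormone, was the least abundant of the 10, at 3.77, 4.09 and 3.09 CPM with vehicle and 2.40 and 2.88 CPM with UMBO. Both UMBO values were below the vehicle values, by less than the vehicle SD of 0.51 CPM in the case of UMBO replicate 2. Its log2 fold change was -0.47 (95% interval -1.17 to 0.235, edgeR adjusted p 0.497).

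Cck (ENSMUSG00000032532, chromosome 9, 121489824 to 121495694, reverse strand), for cholecystokinin, overlapped between the groups, at 166.1, 168.8 and 114.9 CPM with vehicle and 162.0 and 119.0 CPM with UMBO. Each group held a high and a low value, and the SD was 30.4 CPM in both. The log2 fold change of -0.09 (95% interval -0.735 to 0.548) turned positive with library size alone as the scaling (0.01), without vehicle replicate 2 (0.03) and without UMBO replicate 2 (0.11).

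Of the calcium-binding proteins, Pvalb was lower in both UMBO libraries and the calbindins overlapped. Pvalb (ENSMUSG00000005716, chromosome 15, 78191114 to 78206400, reverse strand) encodes parvalbumin, the calcium buffer of fast-spiking basket and chandelier cells. It was at 47.7, 44.7 and 39.9 CPM with vehicle and at 29.9 and 36.8 CPM with UMBO. The UMBO mean was 75.7% of the vehicle mean, with SDs of 3.91 (vehicle) and 4.91 CPM (UMBO). The log2 fold change was -0.40 (95% interval -0.841 to 0.0365), with an edgeR adjusted p of 0.497 and an exact permutation p of 0.1, the smallest possible. Unlike Vip, Gad1 and Gad2, Pvalb was lowest in UMBO replicate 1, and its log2 fold change was -0.56 without UMBO replicate 2 and -0.29 without UMBO replicate 1. It was -0.34, -0.36 and -0.47 without vehicle replicates 1, 2 and 3.

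Calb1 (ENSMUSG00000028222, chromosome 4, 15881264 to 15908064), for calbindin D28k, was at 166.9, 143.9 and 153.1 CPM with vehicle, at 169.8 CPM in UMBO replicate 1 and at 92.2 CPM in UMBO replicate 2. The UMBO libraries held both the highest and the lowest value, and the log2 fold change of -0.24 (95% interval -0.956 to 0.478) became 0.14 without UMBO replicate 2 and -0.77 without UMBO replicate 1.

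Calb2 (ENSMUSG00000003657, chromosome 8, 110137502 to 110168210, reverse strand), for calretinin, varied most among vehicle mice, at 45.8, 74.4 and 97.1 CPM, an SD of 35.5% of the mean. Its UMBO values, 68.9 and 81.8 CPM, fell inside that range. The log2 fold change of 0.06 (95% interval -0.743 to 0.857, edgeR adjusted p 0.933) changed sign without vehicle replicate 1 (-0.19) and without UMBO replicate 2 (-0.07).

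Both GABA-synthesizing enzymes had lower means with UMBO. Gad1 (ENSMUSG00000070880, chromosome 2, 70553072 to 70602014), for the larger enzyme, which supplies most GABA of the cell body, was at 416.8, 320.7 and 321.0 CPM with vehicle and at 300.5 and 245.3 CPM with UMBO. The groups did not overlap, but UMBO replicate 1 lay closer to vehicle replicates 2 and 3 than these lay to vehicle replicate 1. Gad2 (ENSMUSG00000026787, chromosome 2, 22622205 to 22693874), for the smaller, mainly synaptic enzyme, was at 283.8, 233.1 and 277.4 CPM with vehicle and at 257.0 and 163.7 CPM with UMBO, where UMBO replicate 1 lay within the vehicle range. Log2 fold changes were -0.37 for Gad1 (95% interval -0.957 to 0.217, edgeR adjusted p 0.499) and -0.33 for Gad2 (95% interval -0.983 to 0.319, edgeR adjusted p 0.537). Without UMBO replicate 2 they were -0.23 and -0.04, without UMBO replicate 1 -0.55 and -0.72, and without vehicle replicate 1 -0.23 and -0.28. The log2 ratio of Gad1 to Gad2 within a library was 0.55, 0.46 and 0.21 with vehicle and 0.23 and 0.58 with UMBO, so the balance of the enzymes overlapped between the groups.

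Over the 10 genes, 3 log2 fold changes were above 0 and 7 below, with a median of -0.29, while over all genes tested the median was 0.01 and 50.9% were above 0. The median was -0.06 without UMBO replicate 2, the library with the fewest neuronal transcripts, and -0.36 without UMBO replicate 1. It lay between -0.31 and -0.21 without single vehicle libraries.

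**Figure D2:**
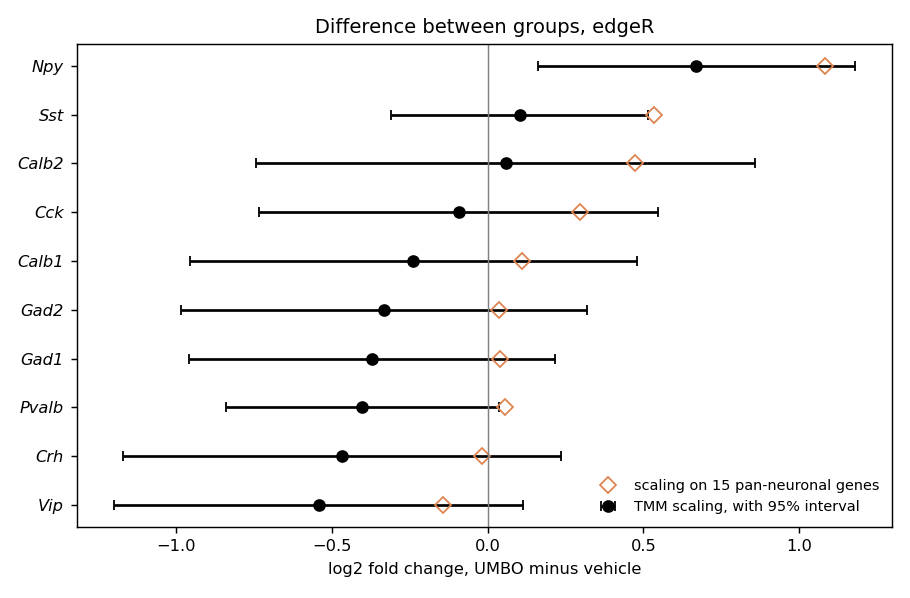
Log2 fold change of UMBO minus vehicle for each gene (horizontal axis) from edgeR, as black points with 95% intervals under TMM scaling and as open diamonds when the libraries were scaled on 15 pan-neuronal genes. Only the interval of Npy (0.162 to 1.18) lies on 1 side of 0, and under the other scaling 8 of the 10 points lie above 0.

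Set against the neuronal RNA of the same library, only Npy and Sst were separated between the groups, no larger a share than among all genes tested. The mean log2 CPM of the 15 pan-neuronal genes was 0.17, -0.08 and -0.09 in the vehicle libraries relative to their mean, -0.13 in UMBO replicate 1 and -0.68 in UMBO replicate 2. After this mean was subtracted from each gene, 2 of the 10 genes were higher in both UMBO mice than in all vehicle mice, as were 24% of all genes tested, and 0 were lower, as were 3.83%. Npy was at -3.46, -3.18 and -3.66 relative to the pan-neuronal genes with vehicle and at -2.52 and -2.17 with UMBO (log2 differences), a gap of 1.08 between the group means. Sst was at -2.33, -2.13 and -2.26 with vehicle and at -2.02 and -1.44 with UMBO. The gap of 0.51 for Sst rested mostly on UMBO replicate 2, while for Npy both UMBO libraries stood well clear of the vehicle range.

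Pvalb, Vip, Crh and Gad1, the genes that were lower in both UMBO libraries by CPM, overlapped between the groups on this scale. Their group means differed by -0.00, -0.14, -0.06 and 0.04. Gad1 stayed between -0.61 and -0.35 in all 5 libraries and Gad2 between -1.02 and -0.76. In the edgeR fit scaled on the pan-neuronal genes, the median over all genes moved from a log2 fold change of 0.01 to 0.43, that of the 10 genes was 0.08, and Npy had a log2 fold change of 1.08 (adjusted p 0.302). Scaling by library size alone moved the median of all genes to 0.13.

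**Figure D3:**
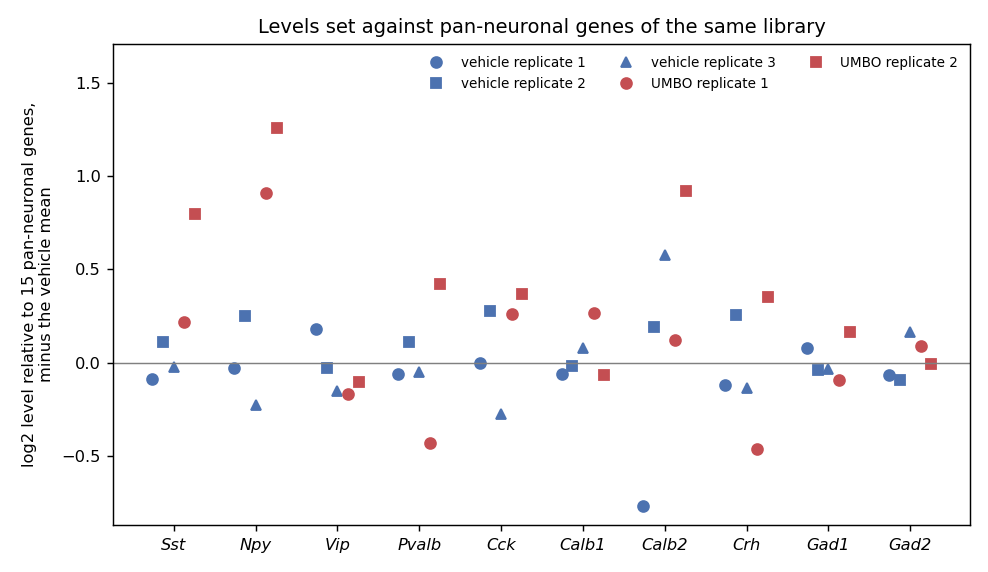
Log2 level of each gene relative to the mean of 15 pan-neuronal genes in the same library, minus the mean of the vehicle libraries (vertical axis), for the 5 libraries. Npy lies far above all vehicle libraries in both UMBO libraries (a gap of 1.08 between the means), Sst lies above all vehicle libraries by a smaller margin, and the other 8 genes overlap. On this scale 24% of all genes tested were above all vehicle libraries in both UMBO libraries.

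Within a library, the ratio of Npy to another of the genes does not depend on scaling. Both UMBO libraries had a higher ratio than every vehicle library for 8 of 9 denominators, which all share the Npy counts, and Calb2 was the exception. Npy was separated between the groups by CPM alone, so the 8 ratios are not separate evidence. The share with all genes as denominators was not computed. The log2 ratio of Npy to Sst was -1.13, -1.05 and -1.39 with vehicle and -0.50 and -0.73 with UMBO. The log2 ratio of Npy to Pvalb was 0.11, 0.22 and -0.10 with vehicle and 1.42 and 0.91 with UMBO. Sst was also higher relative to Pvalb in both UMBO libraries, with log2 ratios of 1.92 and 1.64 against 1.24, 1.27 and 1.29, a ratio that barely varied among vehicle mice. Relative to Vip, Sst was at 2.53 and 3.05 with UMBO and at 1.88 to 2.28 with vehicle. The ratio of Pvalb to Vip overlapped, at 0.62 and 1.41 with UMBO and 0.64 to 1.02 with vehicle.

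Levels of different genes were compared as CPM per kb of exon. In the vehicle libraries Sst was the most abundant transcript, at 147 ± 10.3 CPM per kb (SD, n = 3), above Cck at 115 ± 23.3 and Npy at 82.8 ± 14.8, and the ranges of Cck and Npy overlapped. Gad1 (46.2 ± 7.25), Gad2 (45.1 ± 4.7), Pvalb (42.4 ± 3.75), Calb2 (41.6 ± 14.7) and Calb1 (31.9 ± 2.39) formed a group in which each gene overlapped its neighbor in the order. Vip (7.15 ± 1.63) and Crh (2.77 ± 0.386) lay apart from these and from each other. In the UMBO libraries Npy, at 132 ± 13.2 CPM per kb (SD, n = 2), took the second place behind Sst (158 ± 1.98) and Cck the third (108 ± 23.3). With the length of the longest transcript in place of all exons, Cck came first in the vehicle libraries (188) and Gad1 moved to the third place (98.0), so the order among abundant genes depends on the length used.

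**Figure D4:**
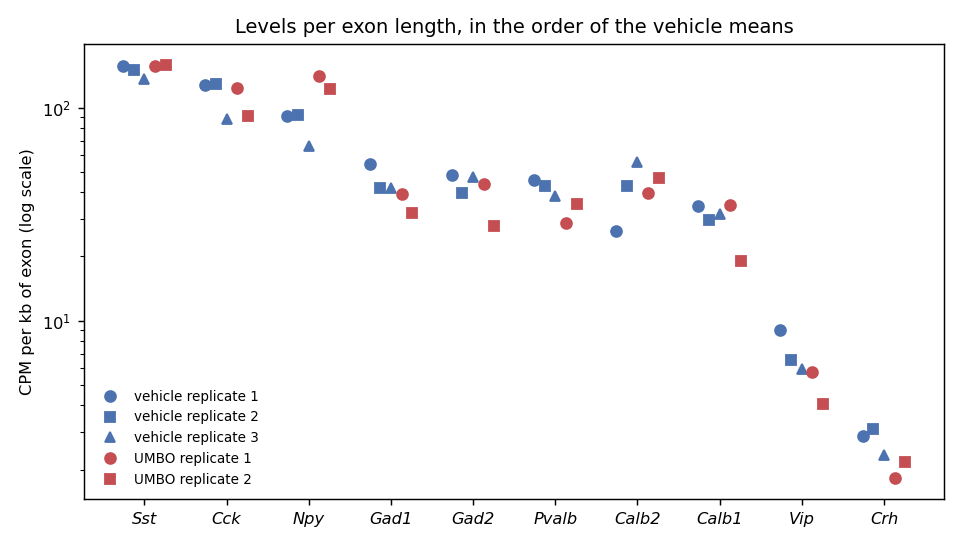
CPM per kb of exon on a log axis for the 10 genes in the 5 libraries, ordered by the vehicle mean from Sst (147) to Crh (2.77). The 2 UMBO values of Npy (141 and 122) lie above its 3 vehicle values (65.8 to 92.0), and Vip and Crh lie below all other genes.

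Most of the other genes of GABA handling also had lower means with UMBO, without calls by edgeR, DESeq2 or limma voom. Of 6 genes for GABA transport and breakdown, 5 had a log2 fold change below 0, with a median of -0.50 that was -0.12 without UMBO replicate 2, -1.02 without UMBO replicate 1 and -0.17 under pan-neuronal scaling, and 0 had an unadjusted p under 0.05. Slc32a1, which loads GABA into vesicles and overlaps the exon of an antisense gene, was at 103.8, 99.4 and 88.3 CPM with vehicle and 81.9 and 74.3 CPM with UMBO (log2 fold change -0.31, and 0.10 under pan-neuronal scaling). Abat, which degrades GABA, overlapped between the groups (303.1 to 424.7 CPM against 323.7 and 158.8 CPM).

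Among 30 genes of interneuron identity, 23 had log2 fold changes below 0, with a median of -0.33 that was -0.14 without UMBO replicate 2, -0.66 without UMBO replicate 1 and 0.04 under pan-neuronal scaling. At an unadjusted p under 0.05, 3 were lower and 1 higher. Cort, for cortistatin, the closest relative of somatostatin, was at 1.46, 2.15 and 1.61 CPM with vehicle and at 0.550 and 0.641 CPM with UMBO. Both UMBO values were below 0.65 CPM while Sst in the same libraries was at its highest, and its log2 fold change was -1.54 ± 0.354 (standard error, edgeR adjusted p 0.497), or -1.12 under pan-neuronal scaling. Lamp5, which marks neurogliaform cells and is also found in excitatory neurons, was at 156.4, 107.4 and 78.6 CPM with vehicle and at 57.8 and 43.4 CPM with UMBO. Dlx6os1, a noncoding transcript at the Dlx5 and Dlx6 locus whose exons overlap other annotated transcripts, was at 15.8 to 20.7 CPM with vehicle and at 13.2 and 9.81 CPM with UMBO. The higher gene, named after its value was seen, was Sox6, at 32.7 to 34.7 CPM with vehicle and 39.8 and 60.6 CPM with UMBO; it is also expressed by oligodendrocyte progenitors. Lhx6, the factor of Pvalb and Sst interneurons, overlapped (12.7 to 18.4 CPM against 13.3 and 9.95 CPM). Adarb2 (18.0 to 27.0 CPM against 20.5 and 7.68 CPM) and Htr3a (2.72 to 4.16 CPM against 4.71 and 3.17 CPM) overlapped too. Both genes are found in Vip interneurons but not in them alone.

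On the receiving side, 12 of 15 genes for receptors of these peptides and for the Crh-binding protein had log2 fold changes below 0, with a median of -0.28 that was 0.04 without UMBO replicate 2, -0.86 without UMBO replicate 1, -0.18 without vehicle replicate 1 and 0.08 under pan-neuronal scaling. At an unadjusted p under 0.05, 2 were lower and 0 higher. Npy1r, a receptor of neuropeptide Y, was at 31.9, 21.7 and 26.9 CPM with vehicle and 18.7 and 8.80 CPM with UMBO, with a log2 fold change of -0.96 ± 0.365 (standard error, edgeR adjusted p 0.497). It was -0.52 without UMBO replicate 2, -1.64 without UMBO replicate 1 and -0.62 under pan-neuronal scaling. Cckbr, the brain receptor of cholecystokinin, was at 26.1 to 45.8 CPM with vehicle and at 22.1 and 17.2 CPM with UMBO. Crhr1 was at 14.1 to 18.9 CPM with vehicle and at 12.9 and 6.84 CPM with UMBO, and Crhbp overlapped (7.89 to 11.2 CPM against 12.6 and 6.61 CPM).

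Of 11 genes for peptide processing and secretory granules, 7 had log2 fold changes below 0, with a median of -0.09 (0.09 without UMBO replicate 2, -0.30 without UMBO replicate 1, 0.01 with library size alone, 0.29 under pan-neuronal scaling), and 1, Pcsk1, had an unadjusted p under 0.05. Pcsk1 and Pcsk2 encode the convertases that cut peptide precursors. Pcsk1 was at 47.7, 27.0 and 43.0 CPM with vehicle and 24.5 and 9.90 CPM with UMBO. Pcsk2, which overlaps antisense transcripts, was at 306.4 to 492.7 CPM with vehicle and 264.7 and 127.8 CPM with UMBO. Scg5, a chaperone of Pcsk2, was at 149.3 to 196.9 CPM with vehicle and 145.7 and 123.4 CPM with UMBO.

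Among 16 other neuropeptides, 13 had log2 fold changes above 0, with a median of 0.21 (0.61 under pan-neuronal scaling), and 0 had an unadjusted p under 0.05. The count and median were 9 and 0.12 without vehicle replicate 1, 10 and 0.58 without vehicle replicate 3 and 10 and 0.15 without UMBO replicate 2. Gal was at 1.44, 4.43 and 5.59 CPM with vehicle and 6.96 and 10.5 CPM with UMBO, and Oxt and Nts overlapped (5.25 to 17.9 CPM against 14.99 and 46.8 CPM, and 6.81 to 11.9 CPM against 9.40 and 19.96 CPM). Gal and Oxt were lowest in vehicle replicate 1, where the 13 hypothalamic genes summed to 50.9 CPM, against 74.8 to 193.3 CPM in the other libraries. Of these 13 genes 7, Oxt among them, are neuropeptides of the list above, and the other 6 summed to 6.81 CPM in vehicle replicate 1, against 13.9 to 20.7 CPM. Whether the sampled region had a part in these values was not tested.

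Of 15 other calcium-binding proteins of the EF-hand family, 12 had log2 fold changes below 0, with a median of -0.45 (-0.10 without UMBO replicate 2, -0.88 without UMBO replicate 1, -0.09 under pan-neuronal scaling), and 2 were lower at an unadjusted p under 0.05. Cabp1 was at 143.9, 117.0 and 100.4 CPM with vehicle and at 73.0 and 59.1 CPM with UMBO, and Necab3, which overlaps a gene on the opposite strand, at 43.5 to 58.6 CPM with vehicle and 38.2 and 28.4 CPM with UMBO. Vsnl1 was at 465.5 to 697.3 CPM with vehicle and at 403.5 and 192.5 CPM with UMBO.

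**Figure D5:**
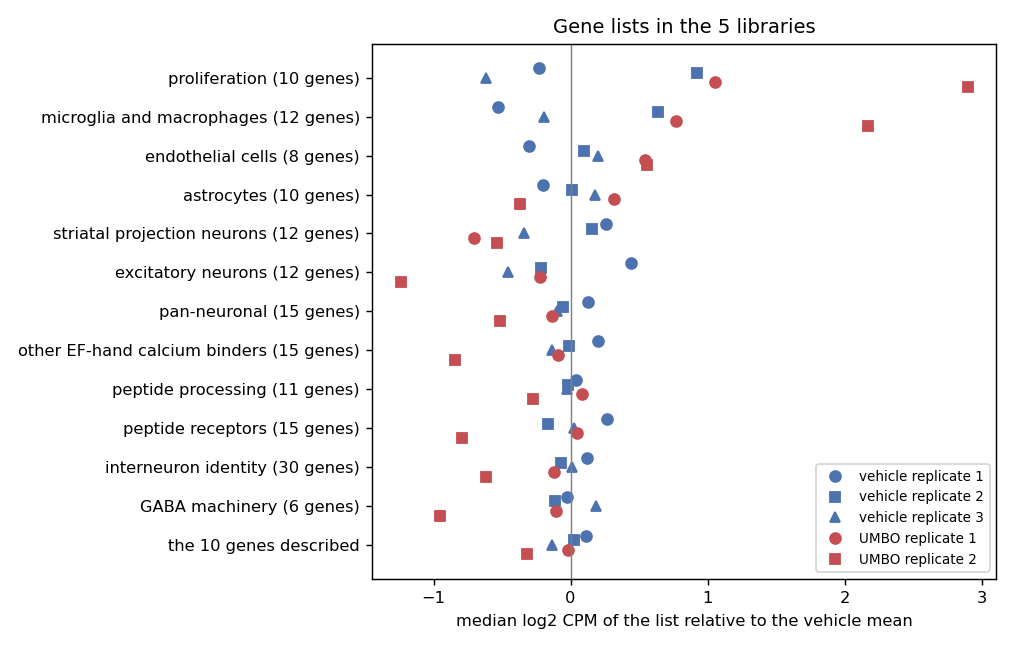
Median log2 CPM of each gene list relative to the mean of the vehicle libraries (horizontal axis), 1 marker per library. For most neuronal lists UMBO replicate 2 lies lowest and UMBO replicate 1 lies at or near the vehicle libraries, and the 10 interneuron genes follow the same order, from -0.32 in UMBO replicate 2 to 0.11 in vehicle replicate 1.

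Markers of other neurons are given for the same libraries. None of these neuronal markers was called by edgeR, DESeq2 or limma voom with all 5 libraries and no block. The 12 excitatory genes had log2 fold changes below 0 in 12 of 12 (11 with library size alone as the scaling, 9 under pan-neuronal scaling), with a median of -0.63 that was -0.26 under pan-neuronal scaling or without UMBO replicate 2, -1.34 without UMBO replicate 1 and -0.42 without vehicle replicate 1, and their summed level was 4301 to 6236 CPM with vehicle, 4570 CPM in UMBO replicate 1 and 1961 CPM in UMBO replicate 2. The 12 genes of striatal projection neurons were also lower in 12 of 12 (10 with library size alone, 9 under pan-neuronal scaling), with a median of -0.67 (-0.22 under pan-neuronal scaling), and summed to 1050 to 1627 CPM with vehicle and to 815.6 and 854.9 CPM with UMBO. Pde10a, a phosphodiesterase of these neurons, was at 311.1, 205.1 and 196.1 CPM with vehicle and at 115.9 and 59.6 CPM with UMBO. The list was lowest in UMBO replicate 1, whereas Gad1 was lowest in UMBO replicate 2. The 12 hippocampal genes lay apart in UMBO replicate 1, at a median of 1.09 above the vehicle mean on the log2 scale, and at -0.93 in UMBO replicate 2. Npy was highest in UMBO replicate 1, and high in UMBO replicate 2 as well. Gfap, of reactive astrocytes, was at 214.1, 514.9 and 387.5 CPM with vehicle and at 1396 and 1635 CPM with UMBO. Its UMBO values were both above all vehicle values, as were those of 11.5% of all genes tested. Of the 10 astrocyte genes, 4 had log2 fold changes below 0, and 1 was called by the DESeq2 Wald test. The part of tumor load, sampled region and cell makeup in the values of the 10 genes was not tested.

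Markers of other regions that contain some of the 10 genes had no calls in these fits either. The direction of most lists turned with single libraries. Some of these lists hold genes of the 10 (Calb2 in the thalamic and olfactory bulb lists, Calb1 and Pvalb in the cerebellar list), so they are given without them, a choice made after seeing the data. Of the other 10 thalamic genes 2 had a log2 fold change above 0 (median -0.33), and they summed to 483.5 to 578.7 CPM with vehicle and to 483.7 and 328.4 CPM with UMBO. Of the other 11 olfactory bulb genes 7 did (median 0.34), with sums of 100.1 to 129.6 CPM against 95.7 and 84.7 CPM. Of the other 8 tested cerebellar genes 3 did (median -0.17), with sums of 498.6 to 812.8 CPM against 423.6 and 210.0 CPM. Without UMBO replicate 2, the medians of the whole lists were -0.04 for the thalamic, -0.19 for the olfactory bulb and 0.15 for the cerebellar genes, against -0.31, 0.21 and -0.21 with it. Without UMBO replicate 1 they were -0.53 for the thalamic and -0.64 for the cerebellar genes. The olfactory bulb median was 0.07 without vehicle replicate 1 and 0.10 without vehicle replicate 2, and the thalamic median was -0.15 without vehicle replicate 2. The median of the 12 hippocampal genes was 0.54, with 8 above 0, but it was -1.003 with 2 above 0 without UMBO replicate 1, 1.08 with 12 above 0 without UMBO replicate 2 and 0.31 without vehicle replicate 2. The median of the 13 hypothalamic genes was 0.09, with 9 above 0, and it was -0.19 with 4 above 0 without vehicle replicate 1 and between 0.04 and 0.51 without each of the other libraries. The Purkinje marker Pcp2 and the granule cell marker Gabra6 were too low to be tested, at no more than 0.117 CPM in any library.

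Among cell types other than neurons, log2 fold changes were above 0 in 11 of 12 genes of microglia and macrophages (median 1.31), 10 of 10 of proliferation (2.13), 8 of 9 of lymphocytes (0.90), 7 of 8 of endothelial cells (0.53), 6 of 10 of astrocytes (0.10), 2 of 10 of oligodendrocytes (-0.04) and 1 of 8 of choroid plexus (-0.48). Without UMBO replicate 2 the medians were 0.65 for microglia and macrophages, 0.83 for proliferation, -0.81 for lymphocytes, 0.30 for astrocytes and -0.11 for choroid plexus. Without UMBO replicate 1 they were -0.42 for astrocytes, -0.20 for oligodendrocytes, -0.97 for choroid plexus and 1.65 for lymphocytes. Without vehicle replicate 2 the medians were 2.08 for microglia and macrophages and 1.62 for lymphocytes, without vehicle replicate 1 that of astrocytes was 0.01, without vehicle replicate 3 that of choroid plexus was -0.27, and that of oligodendrocytes was 0.07 with library size alone and 0.36 under pan-neuronal scaling. The edgeR fit called none of these genes after adjustment, and the DESeq2 Wald test called 1, a gene of the astrocyte list.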

How the data were processed

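RNA of the right hemisphere of 5 mice was sequenced (SMARTer libraries, NovaSeq), and sample titles gave the groups and replicate numbers. The authors mapped reads to GRCm38 with STAR 2.7.2a, and the counts they deposited are unnormalized whole reads per Ensembl gene. The annotation release and the strand setting of the counting are not given in the sources used here. None of the 10 genes overlaps an exon of another gene in GENCODE M21 (same build), which gave symbols, positions and lengths.

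Counts were filtered with filterByExpr and TMM-normalized, and 23592 genes were tested with edgeR 4.0.16 (quasi-likelihood, R 4.3.3), with Benjamini-Hochberg adjustment over all of them and a threshold of 0.05. Log2 CPM used a prior count of 2. Intervals are fitted log2 fold changes with t quantiles. DESeq2 1.42.0, limma 3.58.1 voom, other scalings and filters, the replicate number as a block and each library left out were alternatives. Scripts were tested on simulated data. The 10 genes and all lists were chosen with earlier results of these data known. Besides the 10 genes, the text names the 3 genes with the smallest p of a list and Crhbp, Cort, Lhx6, Adarb2, Htr3a and Slc32a1; some genes this rule names are not reported here. The libraries come from separate mice, and each differed from the others by more than counting error.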

Additional observations from a re-analysis of the deposited data

How the results depend on the processing

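The direction held in all 13 alternatives for Npy, Sst, Vip and Crh, 4 of the 10 genes, with log2 fold changes between 0.52 and 1.08 for Npy, 0.05 and 0.53 for Sst, -0.84 and -0.14 for Vip and -0.60 and -0.02 for Crh. It turned under scaling on the pan-neuronal list for Pvalb (0.056), Cck (0.30), Calb1 (0.11), Gad1 (0.041) and Gad2 (0.036), and with library size only for Cck (0.014). With 1 library left out, Cck ranged from -0.36 to 0.11, Calb1 from -0.77 to 0.14 and Calb2 from -0.19 to 0.33. The median of the 10 genes was 0.082 under pan-neuronal scaling and ranged from -0.36 (without UMBO replicate 1) to -0.056 (without UMBO replicate 2) with 1 library left out. Under the replicate block 2337 genes were called and 6134 had an unadjusted p under 0.05. Vip was then called (log2 fold change -0.66, adjusted p 0.046). Only 2 numbers are shared (correlations of deviations 0.453 and 0.76) and nothing in the labels ties them, so they do not establish pairs. DESeq2 called 37 genes and gave 2639 at an unadjusted p under 0.05. Called genes ranged from 0 to 4543 (without UMBO replicate 1) with 1 library left out, where a lone UMBO library is assumed to vary like the vehicle libraries. Genes with an unadjusted p under 0.05 ranged from 296 (without vehicle replicate 1) to 10165 (without UMBO replicate 1). They numbered 4100 without a filter and 3662 under pan-neuronal scaling, where 3533 were higher and 129 lower, against 1251 and 487. With the longest transcript as the length, 3 of the 10 genes kept their place in the order of levels. The cause was not tested for any of these. Against Gad1 and Gad2 or the excitatory list in place of the pan-neuronal list, the median gap of the other 8 genes was 0.17 and 0.46, against 0.21. With 2 UMBO mice, differences within the intervals given could not be resolved.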
